A study of Mus musculus with 19 samples.

Results

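Superoxide dismutases, catalase, glutathione peroxidases and the enzymes that make and recycle glutathione form the first chemical defence of a cell against reactive oxygen. The 10 genes described here were taken by symbol (Sod1, Sod2, Sod3, Cat, Gpx1, Gpx4, Gsr, Gclc, Gclm and Gss), and each symbol matched a single Ensembl gene among the 39017 in the tables. All 10 were among the 13926 genes with enough counts to be tested, although Sod3 and Gss were near 0 in several libraries. In GRCm38 (GENCODE M21) the dismutases are Sod1 (ENSMUSG00000022982) at chr16:90220754-90226329 (plus strand), Sod2 (ENSMUSG00000006818) at chr17:13006846-13040063 (plus strand) and Sod3 (ENSMUSG00000072941) at chr5:52363791-52371418 (plus strand). Catalase and the peroxidases are Cat (ENSMUSG00000027187) at chr2:103453849-103485160 (minus strand), Gpx1 (ENSMUSG00000063856) at chr9:108338903-108340343 (plus strand) and Gpx4 (ENSMUSG00000075706) at chr10:80047166-80056439 (plus strand). The glutathione genes are Gsr (ENSMUSG00000031584) at chr8:33652523-33698163 (plus strand), Gclc (ENSMUSG00000032350) at chr9:77754535-77794485 (plus strand), Gclm (ENSMUSG00000028124) at chr3:122245557-122270732 (plus strand) and Gss (ENSMUSG00000027610) at chr2:155563181-155592810 (minus strand).

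The libraries came from translating ribosome affinity purification (TRAP), in which ribosomes carrying the EGFP-L10a fusion are pulled out of tissue together with the mRNA they hold, so the values measure ribosome-bound mRNA and not protein or enzyme activity. Striatum of female mice was used, from Drd1::EGFP-L10a or Drd2::EGFP-L10a animals on a background spelled C56BL/6J in the labels. The Drd1 and Drd2 promoters place the tag mainly in D1 and D2 spiny projection neurons, the major output neurons of the striatum. Markers of cholinergic interneurons were also present in D2 libraries, as given below. Every group, controls included, carries the transgene. Mice 2 years of age (old D1 and old D2) were compared with mice of 42 days (young D1 and young D2), with 4 libraries in each of the 4 groups. The series design calls them biological replicates. The 3 NIH-3T3 samples of the series are not analysed here.

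Library depth ranged from 27484038 to 70903004 assigned fragments. Drd1 averaged 418.3 ± 130 TPM (transcript abundance corrected for length and depth) in old D1 libraries and 284.3 ± 36.65 in young D1 libraries, against 67.57 ± 16.71 in old D2 libraries and 8.31 ± 2.54 in young D2 libraries (SD, n = 4 each). Drd2 was 2.14 to 48.52 TPM in old D1 libraries and 1.55 to 37.52 in young D1 libraries, and 2395 to 5717 TPM in old D2 libraries and 2602 to 3668 in young D2 libraries, so both labels matched the data. The 4 old D1 libraries stood apart from the other 12. They had 10364 to 13694 genes with a count, against 12770 to 14992, and gave 4.45 to 5.41% of their counts to Gm42418, a gene model that overlaps ribosomal RNA, against 9.76 to 18.2%. They also share a part of the sequencing index with no other group, so index and group cannot be told apart. Their age change ran with base composition: from the lowest to the highest decile of genes by GC content, the median log2 change between old and young D1 libraries went down from 0.51 to -1.21, while in D2 neurons all decile medians lay between -0.0043 and 0.0227. For that reason age changes in D1 neurons are also given after that trend, fitted over GC content and transcript length, was removed.

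As background, superoxide formed by leaking electrons is turned into hydrogen peroxide by the superoxide dismutases: Sod1 works mainly in the cytosol with copper and zinc, Sod2 in the mitochondrial matrix with manganese, and Sod3 outside the cell. Hydrogen peroxide is then removed by catalase (Cat), which sits mostly in peroxisomes, or by glutathione peroxidases, of which Gpx1 acts on soluble peroxides and Gpx4 on lipid peroxides in membranes. Glutathione is made by glutamate-cysteine ligase (catalytic subunit Gclc, modifier subunit Gclm) and glutathione synthetase (Gss), and its oxidised form is reduced again by glutathione reductase (Gsr) with NADPH. Neurons hold little catalase compared with liver and lean on glutathione and peroxiredoxins for peroxide removal.

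Gpx1 and Gpx4 are selenoproteins: their reading frames contain a TGA that is read as selenocysteine, the catalytic residue, in place of a stop. The codon and its flanks are shown because these are the members with that recoding and both of them fell in old D1 neurons. The sequences are from GENCODE M21 transcripts (GRCm38), 5′ to 3′, with the TGA in capitals. In Gpx1 it is codon 47 of 201, at chr9:108339451-108339453 on the plus strand, and in Gpx4 codon 73 of 197, at chr10:80054737-80054739 on the plus strand, both inside coding exons. In-frame TGA codons before the stop were 0 in the annotated reading frames of Sod1, Sod2, Sod3, Cat, Gsr, Gclc and Gclm; the main Gss transcript has no annotated start and was not read.
Gpx1: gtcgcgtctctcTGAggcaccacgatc
Gpx4: gtggcctcgcaaTGAggcaaaactgac

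The promoters of 4 genes called in old D1 neurons are shown because they moved in opposite directions: Sod2 and Cat were higher, Sod1 and Gpx1 lower. Gpx4, also called lower, is not shown. The calls of Sod1, Sod2 and Gpx4 were lost with the GC and length trend removed. The windows are from RefSeq (GRCm38.p6), run from 250 bases before to 50 bases after the annotated start, and were found for 7 of the 10 genes (Sod1, Sod2, Cat, Gpx1, Gpx4, Gclm and Gss). Capitals mark TGACNNNGC, the core of the antioxidant response element bound by NRF2, and GGGCGG, the GC box bound by Sp1-type factors, searched on both strands; neighbouring GC boxes may overlap each other. Their positions are chr16:90220512-90220811 (plus strand) for Sod1, chr17:13007589-13007888 (plus) for Sod2, chr2:103485104-103485403 (minus) for Cat and chr9:108338830-108339129 (plus) for Gpx1.
Sod1: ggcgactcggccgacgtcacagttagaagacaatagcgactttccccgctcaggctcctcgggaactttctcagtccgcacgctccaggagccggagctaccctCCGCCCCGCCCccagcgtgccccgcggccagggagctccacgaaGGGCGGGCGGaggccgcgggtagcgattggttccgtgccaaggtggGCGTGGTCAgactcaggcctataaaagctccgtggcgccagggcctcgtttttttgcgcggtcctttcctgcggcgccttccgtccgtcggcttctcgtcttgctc
Sod2: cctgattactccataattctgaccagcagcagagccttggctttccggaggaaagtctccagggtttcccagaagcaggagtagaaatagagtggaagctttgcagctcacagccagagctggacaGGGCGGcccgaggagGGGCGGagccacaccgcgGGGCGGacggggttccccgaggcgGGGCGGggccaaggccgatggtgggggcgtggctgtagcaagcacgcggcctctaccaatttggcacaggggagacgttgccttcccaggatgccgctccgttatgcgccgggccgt
Cat: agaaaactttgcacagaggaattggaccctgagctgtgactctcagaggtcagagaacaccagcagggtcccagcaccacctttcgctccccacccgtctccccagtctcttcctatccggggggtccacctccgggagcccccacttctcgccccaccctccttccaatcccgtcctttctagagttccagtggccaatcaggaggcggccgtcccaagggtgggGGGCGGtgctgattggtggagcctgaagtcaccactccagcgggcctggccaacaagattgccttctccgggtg
Gpx1: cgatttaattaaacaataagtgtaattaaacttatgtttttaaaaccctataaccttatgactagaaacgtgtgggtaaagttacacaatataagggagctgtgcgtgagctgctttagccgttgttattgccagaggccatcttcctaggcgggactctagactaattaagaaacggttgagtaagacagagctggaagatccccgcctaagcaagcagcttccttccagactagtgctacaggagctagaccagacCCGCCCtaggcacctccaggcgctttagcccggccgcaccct
The antioxidant response core stood in the Sod1 and Gclm windows, with 1 match each, 2 of 7 genes, against 14% of all 27025 genes with a window of that length. At least 1 GC box stood in at least 1 window of each of the 7 genes, against 38.2% of all genes, with 4 in Sod1, 4 in Sod2 and 4 in Gclm. The Sod2 and Cat windows, from genes that were higher, had 0 matches to the antioxidant response core. The Gpx1 window and all Gpx4 windows, from genes that were lower, also had 0 matches. A match describes letters only.

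In D1 neurons 2 of the 10 genes were called higher and 3 lower in old mice, against 5.39% of all tested genes called higher and 5.44% called lower. Sod2 and Cat rose, and Gpx1, Gpx4 and Sod1 fell. A gene was called at an adjusted p under 0.05 in edgeR's quasi-likelihood test over all 16 libraries, with Benjamini-Hochberg adjustment over all 13926 genes. With the GC and length trend removed, Gpx1 and Cat kept their calls, and Sod2, Gpx4 and Sod1 lost theirs. In D2 neurons 0 of the 10 were called, against 0.079% of all tested genes; 0 passed an unadjusted p under 0.05 and DESeq2 called 0. In pulled-down RNA of this kind, a change within the tagged cells and a change in the mix of cells giving RNA cannot be told apart.

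**Figure D1:**
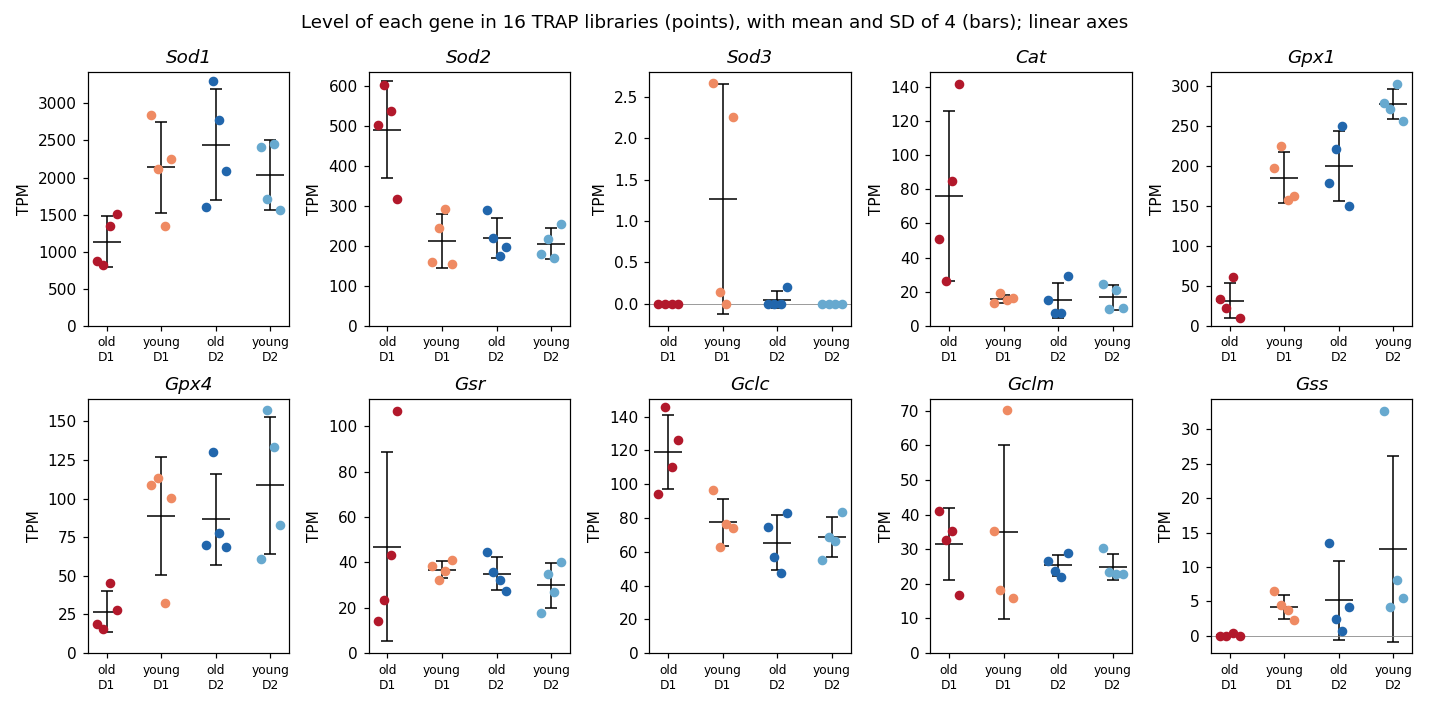
TPM of each gene (linear vertical axes, 1 panel per gene) in old D1, young D1, old D2 and young D2 libraries; each point is a library and the bars are the mean and SD of 4. The old D1 points of Gpx1, at 9.16 to 61.05 TPM, lie below every other library, and those of Sod2, at 318.2 to 601.4 TPM, lie above every other library.

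Sod1 was the most abundant of the 10 genes in every group by mean TPM. Old D1 libraries had 873.53, 815.48, 1352.81 and 1506.78 TPM, against 2843.25, 2118.61, 1342.74 and 2246.77 TPM in young D1 libraries. The groups overlapped through the lowest young library, the third, which lay below the highest pair of old ones. The fitted log2 change was -0.93 ± 0.29 (SE; adjusted p = 0.0436, edgeR), a 1.91-fold lower level in old D1 neurons. With the GC and length trend removed it was -0.44 ± 0.26 (adjusted p = 0.341), and over 16 fits that each left out a library the adjusted p ran from 0.0121 to 0.112, with the call kept in 7; it was lost without young D1 replicate 1, 2 or 4, young D2 replicate 1, 2 or 3, old D1 replicate 1 or 2, or old D2 replicate 3. It was also lost with DESeq2 size factors in edgeR (0.0517), the compared groups alone (0.133), voom (0.121) and limma on unfiltered TPM (0.0676). In D2 neurons Sod1 had 1604.11, 3300.30, 2776.14 and 2089.82 TPM in old libraries, against 2415.79, 1710.08, 2455.37 and 1558.85 TPM in young libraries, with a log2 change of 0.19 ± 0.29 that was not called. Sod1 overlaps Scaf4 on the opposite strand, and whether counting used strand is not given in the sources used here.

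Sod2 rose in old D1 neurons. It had 502.98, 601.41, 538.42 and 318.20 TPM in old D1 libraries, against 158.81, 245.56, 291.99 and 155.54 TPM in young D1 libraries, with no overlap. The fitted log2 change was 1.11 ± 0.22 (adjusted p = 0.00281, edgeR), 2.16-fold higher in old mice, and the call was kept in all 16 fits that left out a library. Its transcript is low in GC (42.2%, read from a GENCODE M21 model that is longer than the one in the tables), in the second decile of genes, whose median change was 0.37. With the trend removed the change was 0.48 ± 0.22 (adjusted p = 0.207), so the call was lost. Old D2 libraries held 289.81, 218.79, 173.94 and 196.66 TPM, and young D2 libraries 178.94, 216.60, 170.12 and 255.23 TPM, with overlapping ranges and a log2 change of 0.01 ± 0.21.

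The balance of the mitochondrial and cytosolic enzymes can be read within a library as the ratio of Sod2 to Sod1 TPM. It was 0.211 to 0.737 in old D1 libraries (median 0.487), against 0.0559 to 0.217 in young D1 libraries (median 0.0926). In D2 libraries it was 0.0627 to 0.181 at 2 years and 0.0693 to 0.164 at 42 days. Sod1 is the higher of the pair in all 16 libraries. The median old D1 library stood above every library of the other groups, while the lowest old D1 library lay inside the young D1 range. The ratio combines a lower Sod1 and a higher Sod2, transcripts that differ in GC content (53.2% and 42.2%).

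Sod3, the secreted dismutase, was barely present. It had 0 counts in all 4 old D1 libraries, against 218, 10, 0 and 194 counts in young D1 libraries. Old D2 libraries held 0, 0, 0 and 9 counts and young D2 libraries 0 in all 4. A count of 0 allows up to 3 counts per group of libraries at this depth, for counting error only. The gene passed the low-count filter only through these few libraries, mostly young D1, and it was not called in any contrast, with or without the GC and length trend; no fold is given, since 3 of 4 groups were at or near 0.

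Catalase rose in old D1 neurons. The old D1 libraries had 51.12, 26.47, 84.75 and 142.05 TPM, against 13.42, 18.94, 15.00 and 16.07 TPM in young D1 libraries. The ranges did not overlap, but the old libraries spread over 26.47 to 142.1 TPM, while the young ones lay within 13.42 to 18.94. The log2 change was 2.23 ± 0.55 (adjusted p = 0.0149, edgeR), 4.68-fold higher in old mice. It hardly moved with the GC and length trend removed (2.16 ± 0.57, adjusted p = 0.0303), and Cat sits in the fifth decile by GC content. The call was lost without young D1 replicate 1 (adjusted p = 0.0526) and without old D1 replicate 4, the highest library (log2 1.60, adjusted p = 0.0544), and when only the compared groups were fitted (adjusted p = 0.0584). Cat was 15.38, 7.51, 7.51 and 29.02 TPM in old D2 libraries and 24.57, 10.13, 21.11 and 10.60 TPM in young D2 libraries, so no D2 library reached the old D1 median of 67.94 TPM.

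Gpx1 had the strongest fall of the 10 by adjusted p. Old D1 libraries had 33.35, 22.73, 61.05 and 9.16 TPM, against 197.07, 225.14, 157.62 and 163.01 TPM in young D1 libraries. All 4 old libraries were far below the lowest young one. The log2 change was -2.67 ± 0.39 (adjusted p = 0.000358, edgeR), a 6.36-fold lower level, from 147 to 1076 counts per old library and 3584 to 4183 counts per young library. It was called in 26 of 26 alternative fits. The Gpx1 transcript has a GC content of 57.2%, in the ninth decile, whose median change was -0.76, and after that adjustment the change was -1.78 ± 0.35 (adjusted p = 0.00574). In D2 neurons Gpx1 had 178.64, 221.39, 250.32 and 150.19 TPM in old libraries, against 279.08, 271.98, 303.34 and 256.90 TPM in young libraries. These ranges did not overlap either, the 1 such gene of the 10 against 7.07% of all tested genes, but the log2 change of -0.55 ± 0.37 was not called (adjusted p = 1).

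Gpx4, which protects membrane lipids, was also lower in old D1 neurons. It had 18.61, 15.36, 45.01 and 27.96 TPM in old D1 libraries, against 109.05, 113.16, 32.34 and 100.64 TPM in young D1 libraries. The ranges overlapped because young D1 replicate 3, at 32.34 TPM, lay below old D1 replicate 3. The log2 change was -1.71 ± 0.50 (adjusted p = 0.0343, edgeR). It was -0.62 ± 0.46 with the GC and length trend removed (adjusted p = 0.459), and Gpx4, at 58.8% GC, is in the highest decile, whose median change was -1.21. The call was kept in 10 of 16 fits that left out a library, with adjusted p from 0.0184 to 0.0993, and was lost without young D1 replicate 1, 2 or 4, young D2 replicate 3, or old D1 replicate 1 or 2. It was also lost with only the compared groups (0.207) and with voom (0.266). Old D2 libraries held 68.52 to 130.2 TPM and young D2 libraries 60.85 to 157.1 TPM.

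**Figure D2:**
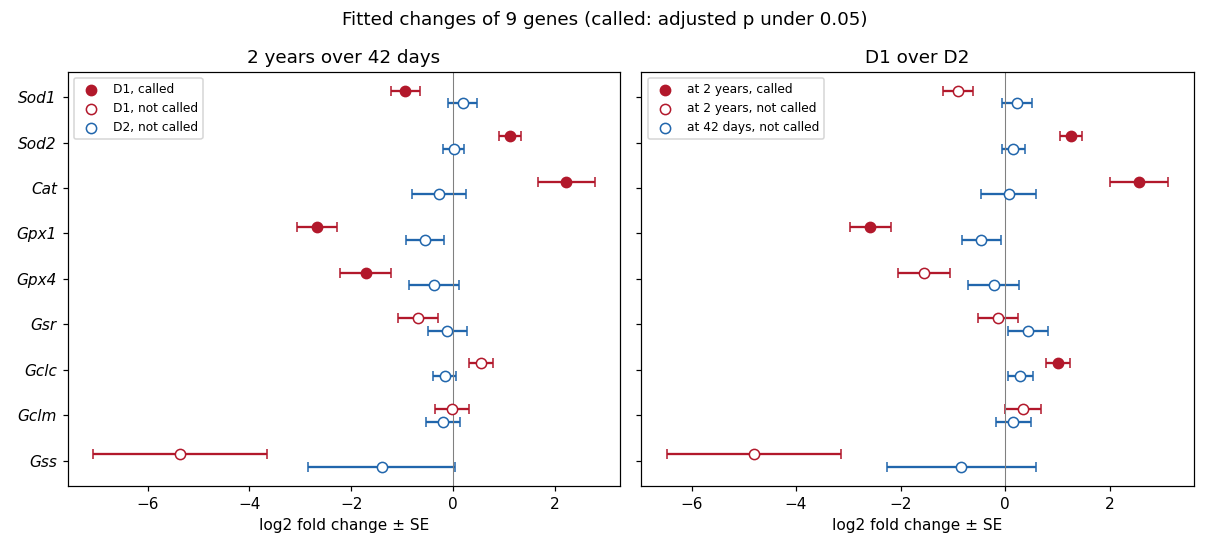
Fitted log2 fold change with its SE (horizontal axis) for 9 genes, Sod3 left out because 3 groups were at or near 0; the left panel shows old over young in D1 and D2 neurons and the right panel D1 over D2 at 2 years and at 42 days. The old D1 position of Gss rests on 12 counts in 1 library and is no estimate of size. Filled points were called; in D1 neurons Gpx1 lies at -2.67 and Cat at 2.23, and no point for D2 neurons or for 42 days is filled.

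Of the 4 genes of glutathione synthesis and recycling, 0 were called with age in D1 neurons; beside the 5.39% of all tested genes called higher and 5.44% called lower, nothing is read from that count. Gclc had 94.47, 145.49, 110.38 and 126.33 TPM in old D1 libraries, against 96.51, 62.76, 76.69 and 73.87 TPM in young D1 libraries. A single young library exceeded the lowest old one, by 96.51 to 94.47 TPM, and the log2 change of 0.55 ± 0.23 had an adjusted p of 0.133 (edgeR), and 0.27 ± 0.23 after the GC and length adjustment (adjusted p = 0.553). Gclc lay at 47.3 to 83.12 TPM in old D2 libraries and 55.04 to 83.82 TPM in young D2 libraries. Gclm had 16.70 to 41.11 TPM in old D1 libraries and 15.95 to 70.32 TPM in young D1 libraries, with a log2 change of -0.02 ± 0.34 as fitted (adjusted p = 0.985, edgeR). After the GC and length adjustment it was -0.80 ± 0.33, also not called (adjusted p = 0.15). The D2 libraries were close together, at 21.99 to 28.96 TPM in old and 22.72 to 30.32 TPM in young mice. The ratio of Gclc to Gclm TPM had a median of 3.79 in old D1 libraries and 3.08 in young D1 libraries. Its ranges overlapped there, at 2.3 to 7.56 in old and 1.09 to 4.63 in young libraries. In D2 libraries the median was 2.60 at 2 years and 2.91 at 42 days. Of the Gclm TPM, a retained-intron transcript took 27.37 of 70.32 in young D1 replicate 3 and 11.6 of 35.23 in old D1 replicate 3.

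Gss was read from very low counts. Old D1 libraries had 0, 0, 12 and 0 counts, against 161, 166, 162 and 89 counts in young D1 libraries. The groups did not overlap, and the test just missed the threshold (adjusted p = 0.0504, edgeR); DESeq2 called it, as did edgeR with DESeq2 size factors and edgeR without old D1 replicate 3. After the GC and length adjustment the adjusted p was 0.0831. No fold is given, because 3 of 4 old libraries were at 0. In D2 neurons Gss had 13.52, 2.36, 0.69 and 4.10 TPM in old libraries, against 32.73, 4.16, 8.14 and 5.52 TPM in young libraries, which overlapped. Its 9 annotated transcripts, its overlap with Acss2, Gssos1 and Gssos2 on the opposite strand, and the low counts make its level uncertain.

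Gsr showed how the split of reads among transcripts bears on a level. By gene TPM it had 14.21, 23.37, 43.41 and 106.96 in old D1 libraries, against 38.24, 32.07, 36.08 and 40.87 in young D1 libraries. Most of the old replicate 4 value, 96.51 TPM, was assigned to a short annotated non-coding transcript, which was otherwise listed above 0 only in old D2 replicate 1 (25.74 TPM). Its protein-coding transcript had 10.45 to 43.41 TPM in old D1 libraries, against 32.07 to 40.87 TPM in young D1 libraries. In D2 libraries that transcript had 18.89 to 35.89 TPM at 2 years and 17.5 to 40.13 TPM at 42 days, with overlap. The count-based log2 change was -0.69 ± 0.39 (adjusted p = 0.27, edgeR), or -0.70 ± 0.39 after the GC and length adjustment (adjusted p = 0.303), while the mean gene TPM was higher in old D1 libraries (46.99 ± 41.8) than in young D1 libraries (36.81 ± 3.72; SD, n = 4 each). The higher mean came with the value of old replicate 4. The median gene TPM was lower in old D1 libraries (33.39) than in young D1 libraries (37.16). Fits on log2 TPM also gave a negative change. Only the mean thus differed in sign, and no age change is called.

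The same split touched Gpx4. Protein-coding transcripts held 0 to 38.98 TPM in old D1 libraries (median 7.46), against 30.5 to 104 TPM in young D1 libraries (median 73.25). In old D1 replicates 1 and 4 coding transcripts were listed at 0, and a non-coding processed transcript took 14.97 and 27.96 TPM. In young D1 replicate 4, 42.41 TPM went to a retained-intron transcript. RSEM divides reads among overlapping transcripts by a model, and with 191 to 630 counts per old D1 library the precision of that division was not measured. Sod1, Sod2, Sod3, Gpx1 and Gclc have a single annotated transcript in the tables and no such split.

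**Figure D3:**
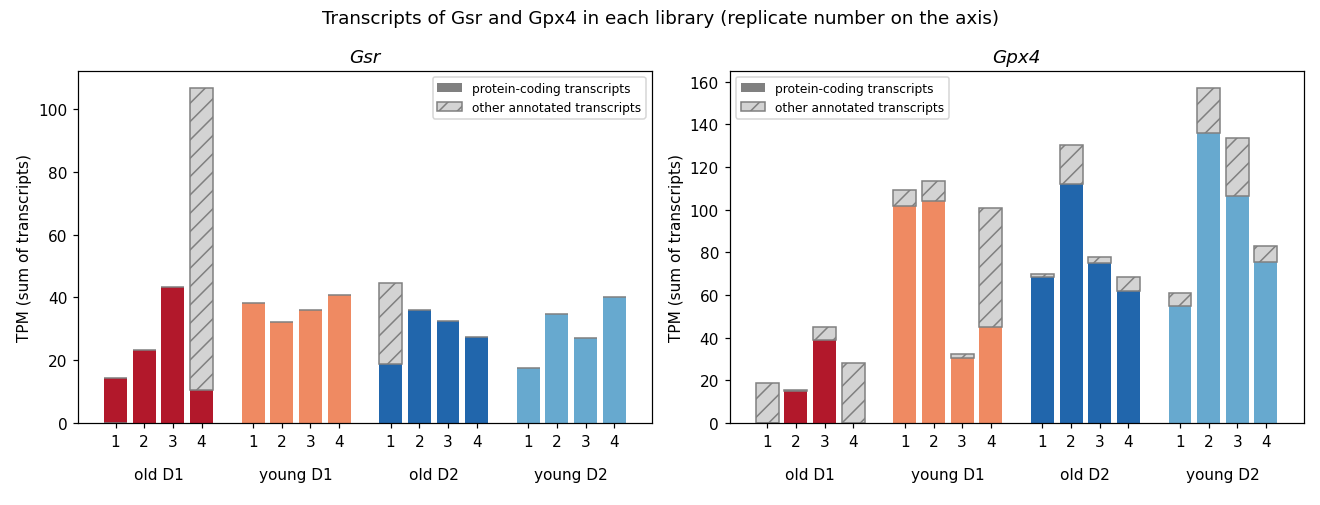
TPM assigned to protein-coding transcripts (coloured) and to other annotated transcripts (hatched), summed per library, for Gsr and Gpx4; bars start at 0 and the numbers below are replicates. The old D1 replicate 4 bar of Gsr is mostly hatched, at 96.51 of 106.96 TPM, and 2 old D1 bars of Gpx4 have no coloured part.

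The share of Sod1 in the summed TPM of the 10 genes was 48.5 to 66.8% in old D1 libraries, against 66.3 to 81.2% in young D1 libraries. The sum itself was 1959 ± 351 TPM in old D1 libraries and 2796 ± 603.1 in young D1 libraries, against 3095 ± 748.2 in old D2 libraries and 2779 ± 438.6 in young D2 libraries (SD, n = 4 each). The order of levels differed in the middle. In old D1 libraries Sod1 and Sod2 were followed by Gclc (119.2 TPM) and Cat (76.1 TPM), with the means of Gpx1 and Gpx4 below them at 31.57 and 26.73 TPM. In young D1, old D2 and young D2 libraries Sod1 came first, followed by Sod2 and Gpx1 (Gpx1 before Sod2 in young D2), Gpx4 and Gclc, with Cat below Gsr and Gclm. Neighbours from Gclc down to Gpx4 overlapped in old D1 libraries, so that part of the order is not separated by the spread. In young D1 and old D2 libraries Sod2 and Gpx1 overlapped, as did Gpx4 and Gclc, and Gsr, Gclm and Cat in turn.

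**Figure D4:**
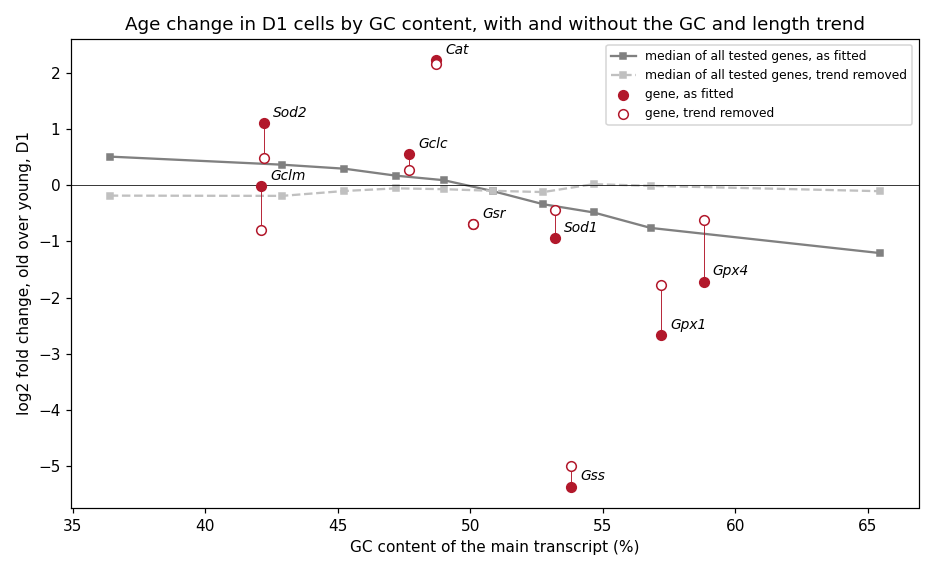
Log2 fold change of old over young D1 libraries (vertical axis) against GC content of the main transcript (horizontal axis, percent), for 9 genes as fitted (filled) and after removal of the trend over GC content and length (open); squares are medians of all tested genes in deciles by GC content. Gpx1 stays at -1.78 and Cat at 2.16 with the trend removed, while Sod2 is at 0.48, Sod1 at -0.44 and Gpx4 at -0.62.

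The age changes of the 2 neuron types were compared in the same fit. The difference (D1 minus D2) was called for 1 of the 10 genes, Gpx1, against 1.77% of all tested genes; the median difference over all tested genes was -0.11. The Gpx1 difference was -2.12 ± 0.53 on the log2 scale (adjusted p = 0.0451, edgeR). It was -1.25 ± 0.48 with the GC and length trend removed (adjusted p = 0.239), and the call was kept in 4 of 16 fits that left out a library (adjusted p from 0.00463 to 0.11). It was lost on leaving out any young D2 library, young D1 replicate 1, 2 or 4, old D1 replicate 1 or 2, or old D2 replicate 1, 2 or 3, and also with voom (-1.91, adjusted p = 0.107), where Sod2 was called in its place, and with limma on unfiltered TPM (0.0794). The differences of Sod2 (1.10 ± 0.30, adjusted p = 0.0637) and Cat (2.49 ± 0.76, adjusted p = 0.0941) were not called, so a change confined to D1 neurons was not shown for them; DESeq2 called both.

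At 2 years, D1 and D2 neurons were set against each other directly. Of the 10 genes, 3 were called higher in D1 neurons, against 5.02% of all tested genes, and 1 lower, against 4.58%. Sod2 was higher (log2 1.26 ± 0.22, adjusted p = 0.00114, edgeR), as were Cat (2.56 ± 0.56, adjusted p = 0.00749) and Gclc (1.01 ± 0.23, adjusted p = 0.0105). Gpx1 was lower (-2.58 ± 0.39, adjusted p = 0.000389). All 4 calls held with the GC and length trend removed, at adjusted p of 0.0388 for Sod2, 0.0115 for Cat, 0.032 for Gclc and 0.00372 for Gpx1. Cat lost its call only where the compared groups alone were fitted (adjusted p = 0.0591). Gclc, the rate-setting subunit of glutathione synthesis, had 94.47 to 145.5 TPM in old D1 libraries, against 47.3 to 83.12 TPM in old D2 libraries, with no overlap; its call was lost without old D2 replicate 2 (adjusted p = 0.0504) and when the compared groups alone were fitted (0.0719). Sod1 (-0.90 ± 0.29, adjusted p = 0.0542) and Gpx4 (-1.56 ± 0.50, adjusted p = 0.055) missed the threshold although their TPM ranges did not overlap. With the GC and length trend removed Sod1 was at -0.51 ± 0.26 (adjusted p = 0.256, edgeR) and Gpx4 at -0.63 ± 0.46 (adjusted p = 0.459).

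At 42 days 0 of the 10 genes were called between D1 and D2 neurons, against 0.409% of all tested genes; DESeq2 called 0, and Sod3 passed an unadjusted p under 0.05. Fitted log2 differences, with Sod3 and Gss left out, lay between -0.46 ± 0.37 (Gpx1) and 0.43 ± 0.39 (Gsr). Gpx1 was the 1 gene whose TPM ranges did not overlap, at 157.6 to 225.1 TPM in young D1 libraries against 256.9 to 303.3 TPM in young D2 libraries. Such separation occurred in 6.35% of all tested genes. Between old and young D1 libraries the TPM ranges were separate for Sod2 and Cat (higher) and Gpx1 and Gss (lower), 4 of 10 against 13.8% of all tested genes. At 2 years they were separate between D1 and D2 libraries for Sod2 and Gclc (higher) and Sod1, Gpx1, Gpx4 and Gss (lower), 6 of 10 against 14.8%. The comparisons share groups, and their counts are not independent.

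The enzymes around the 10 genes were read from 9 lists of 100 genes in all, of which 93 were tested. In D1 neurons 3 rose and 4 fell with age, with a median log2 change of -0.16 beside -0.06 for all tested genes; the shares called among all tested genes were 5.39% higher and 5.44% lower, and nothing particular to the lists is read from their counts. In D2 neurons 0 list genes were called, and at 42 days 0 between the neuron types, where 0.079% and 0.409% of all tested genes were. The peroxiredoxins split: Prdx2, a cytosolic peroxide scavenger, rose to 793.1 ± 122.9 TPM in old D1 libraries, against 434 ± 72.65 in young D1 libraries (log2 0.91 ± 0.19, adjusted p = 0.00516, edgeR). Prdx5, which acts in mitochondria and peroxisomes, fell to 32.38 ± 16.63 TPM in old D1 libraries, against 231.1 ± 64.88 in young D1 libraries (-2.49 ± 0.37, adjusted p = 0.000411). Both kept their calls with the GC and length trend removed, at adjusted p of 0.00204 for Prdx2 and 0.00263 for Prdx5.

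The other list members called in D1 neurons were Glrx3 and Fth1, which rose, and Txnrd2, Gstm5 and Mafg, which fell. Fth1, the heavy chain of ferritin, which stores iron, was 1389 ± 324.8 TPM in old D1 libraries, against 750.4 ± 213.1 in young D1 libraries (log2 0.86, and 1.35 after the GC and length adjustment, adjusted p = 0.00292, edgeR); it has processed pseudogenes, with which reads can be shared. Gstm5, a glutathione transferase, was 66.94 ± 40.85 TPM in old D1 libraries, against 228.1 ± 49.28 in young D1 libraries (log2 -1.97, and -1.78 after adjustment, adjusted p = 0.0108). Mafg, a small Maf partner of NRF2, was 3.66 ± 2.77 TPM in old D1 libraries and 19.32 ± 12.21 in young D1 libraries (log2 -2.56, and -2.17 after adjustment, adjusted p = 0.023). Txnrd2, the mitochondrial thioredoxin reductase, was 0.155 ± 0.237 TPM in old D1 libraries and 16.95 ± 12.68 in young D1 libraries, and it lost its call with the trend removed (adjusted p = 0.0502), as did Glrx3 (0.0541).

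The age changes of Prdx5 and Gstm5 also differed between D1 and D2 neurons, by -2.40 ± 0.50 (adjusted p = 0.022) and -2.35 ± 0.53 (adjusted p = 0.0299) on the log2 scale, 2 of 93 list genes against 1.77% of all tested genes; with the GC and length trend removed these were 0.0772 and 0.0701. At 2 years Prdx2, Glrx3 and Fth1 were among the list genes higher in D1 than in D2 neurons, and 6 of 93 were lower, against 4.58% of all tested genes (Gpx3, Prdx5, Gstm5, Mafg, Ftl1 and Pex14). Pex14, part of the import machinery of peroxisomes, had 4.79 ± 3.94 TPM in old D1 libraries, against 28.38 ± 8.15 in old D2 libraries (SD, n = 4 each). After the GC and length adjustment Gpx3 (adjusted p = 0.0757, edgeR) and Pex14 (0.106) lost their calls, and Ftl1 had no GC value. The lists for NADPH supply (11 tested), cysteine supply and glutathione breakdown (13), metal handling for superoxide dismutases (8) and selenocysteine insertion (10) had 0 calls in every contrast. With so few genes in each list, these counts are near the share called among all tested genes and nothing is read from them.

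Markers of other cell types were read beside these results, and their part in them was not tested. The summed level of 10 astrocyte markers was 131.7 to 227.3 TPM in old D1 libraries and 110.5 to 158.6 in young D1 libraries, and 122.2 to 157.5 in old D2 libraries and 73.07 to 104.2 in young D2 libraries. The 8 oligodendrocyte markers summed to 87.35 to 208.2 TPM in old D1 libraries and 129.4 to 302.8 in young D1 libraries, and to 253.8 to 378 in old D2 libraries and 160.5 to 275.2 in young D2 libraries. At 2 years the old D1 and old D2 sums did not overlap, and 1 of the 8 was called lower in D1 neurons, against 4.58% of all tested genes. The 6 D1 neuron markers summed to 4597 to 7381 TPM in old D1 libraries and 2459 to 3229 in young D1 libraries, without overlap. In old D2 libraries they summed to 410.9 to 656.1 TPM. Within D2 neurons the old sums lay above the 133 to 153.6 TPM of young D2 libraries. With age in D2 neurons 3 of the 6 were called higher, against 0.079% of all tested genes called in either direction. In D1 neurons 1 of the 6 was called higher with age, against 5.39% of all tested genes. Red blood cells are rich in catalase and Prdx2, and their 5 markers summed to 0 to 69.24 TPM in old D1 libraries and 0 to 49.54 in young D1 libraries. The 8 microglial markers summed to 0.33 to 28.51 TPM in old D1 libraries and 0.49 to 17.39 in young D1 libraries, with C1qa and Tmem119 at 0 in all old D1 libraries. The 6 endothelial and mural markers reached at most 20.7 TPM, and the 5 ependymal markers were at 0 in every old D1 library. The 3 cholinergic interneuron markers found summed to 10.57 to 25.03 TPM in old D2 libraries and 5.91 to 26.7 in young D2 libraries. They summed to 0 to 1.86 TPM in old D1 libraries and 0.18 to 5.14 in young D1 libraries. At 2 years 1 of these 3 was called lower in D1 neurons, against 4.58% of all tested genes. The 5 GABAergic interneuron markers summed to 30.48 to 545.9 TPM in old D1 libraries, against 62.79 to 141.6 in young D1 libraries. With age in D1 neurons 1 of these 5 was called higher, against 5.39% of all tested genes.

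Genes whose level followed each called gene across the 16 libraries are named as a description, since the old D1 libraries stood apart from the other 12, as given above. For Gpx1 these were Lrrc10b (Pearson r = 0.98 of log2(TPM + 1)), Arf3 (0.97) and Rnf114 (0.97), among 8903 genes. Sod2 was most like Kif5c (0.96), Tubb4b (0.95) and Ppig (0.94), and Sod1 like Rplp1 (0.94), Ap1s1 (0.93) and Ap5s1 (0.92). Cat was nearest to Rack1 (0.92), Ppfia1 (0.87) and Abca8b (0.86), Gpx4 to Kctd16 (0.93), Atp5d (0.92) and Prdx5 (0.92), and Gclc to Mpc1 (0.89), Aff4 (0.87) and Psma2 (0.87). Within the 10 genes, Sod1 and Sod2 ran opposite over the 16 libraries (r = -0.88), and over the 12 without old D1 (-0.72). Gpx1 and Gpx4 ran together (0.82), less so without old D1 libraries (0.49). The correlation of Gpx1 with Cat was -0.80 over 16 libraries and -0.23 over the 12.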

How the data were processed

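The labels give TRAP libraries made with NuGEN Ovation V2. The authors' deposited tables hold RSEM expected counts (estimated, so not always whole), TPM, effective lengths and, per transcript, the percent of the gene's TPM, per the file headers. RSEM 1.2.20, STAR 2.5.1b and build mm10 are named in the submitters' processing notes; the annotation release is not given in the sources used here, and GENCODE M21 was used for positions and GC content (37693 of 39017 genes matched). Expected counts were rounded and tested with edgeR 4.0.16 (R 4.3.3; filterByExpr, TMM, robust quasi-likelihood fit with 1 mean per group, all 16 libraries). Depth was 27484038 to 70903004 fragments per library. limma 3.58.1 and DESeq2 1.42.0 served alternatives, which also left out each library in turn. The GC and length trend was fitted to each library as splines and used as an offset. The scripts were tested on simulated counts. All 10 members were named, with up to 3 called genes per list, direction and contrast and the 3 most alike genes per called member. Members and lists were chosen with earlier results of these data known. Proteins were not used here. Some list genes called at 2 years are not reported here.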

Additional observations from a re-analysis of the deposited data

Results flagged for a closer look

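In 6 of 38 groups of 4 libraries tested, 1 library stood far from the other 3; chance gives about 1 in 20. That rate does not apply to Sod3 in old D2 libraries and Gss in old D1 libraries, where the other 3 values were tied at 0, so that any count in the last library would be singled out. Gpx4 in young D1 libraries had replicate 3 at 32.34 TPM below the rest. Gpx4 in old D2 libraries had a highest value of 130.2 TPM. Gclm in young D2 libraries had a highest value of 30.32 TPM. Gss had a highest value of 0.39 TPM in old D1 libraries, where the other 3 were at 0, and of 32.73 TPM in young D2 libraries. Sod3 was at 0.2 TPM in 1 old D2 library, with the other 3 at 0.

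Gpx1 was the 1 gene of the 10 whose age change was called different between D1 and D2 neurons. The difference, D1 minus D2, was -2.12 on the log2 scale (adjusted p = 0.0451, edgeR). With the GC and length trend removed the call was lost (adjusted p = 0.239, edgeR). It was kept in 4 of 16 fits that left out a library. The 4 old D1 libraries lay below all 4 young D1 libraries, and the old D2 libraries also lay below the young D2 libraries.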

How the results depend on the processing

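No paired analysis was possible because the labels give no replicate numbers shared between groups; the numbers used here follow accession order. The fitted changes of the members other than Sod3 were counted under the alternatives. Of these, 1055 kept direction and side of the threshold, 45 lost a call, 27 gained one and 34 changed sign, all of uncalled genes. Over all genes, the count called with age in D1 neurons (1508) was 2600 by DESeq2, 305 when fitting the compared groups alone, 547 by voom with library weights, 770 after adjusting for GC and length, and 909 to 2055 on leaving out a library. With age in D2 neurons (11) it was 102, 39 and 167 with DESeq2, the compared groups and voom, 7 with limma on log2(TPM + 0.1), and 5 to 18. For the difference of the age changes (246) it was 1019 with DESeq2, 92 with limma on unfiltered log2(TPM + 1), 65 without the trend and 66 to 656. At 2 years (1337) it was 2402, 354, 655 and 869 in the order DESeq2, compared groups, voom and trend removed, and 692 to 1873. At 42 days (57) it was 189, 98 and 203, and 40 to 90.

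Of the 10 genes, the 5 called with age in D1 neurons became 2 with the compared groups, 3 with voom, 2 without the trend and 2 to 6 on leaving out a library. The 1 called for the difference became 3 with DESeq2, 0 with unfiltered TPM, 0 without the trend and 0 to 2. The 4 called at 2 years became 7 with DESeq2, 2 with the compared groups and 7 with log2(TPM + 0.1). Changes of sign: Gclm with age in D1 neurons was 0.0256, 0.0307 and 0.0256 in the 3 TPM fits and -0.27 to 0.14 on leaving out a library; Sod2 with age in D2 neurons was -0.0102 with voom, -0.0517 without the trend and -0.14 to 0.11. Gsr with age in D2 neurons was 0.27, 0.28 and 0.27 in the TPM fits and -0.30 to 0.0354, and Gclm there 0.0266, 0.0276 and 0.0266. The Gclm difference was -0.52 without the trend and -0.0736 to 0.34. At 2 years Gsr was 0.0382, 0.0298 and 0.0382 in the TPM fits and -0.51 to 0.0504, and Gclm -0.23 without the trend. At 42 days, leaving out a library gave -0.13 to 0.33 for Cat, -0.41 to 0.0462 for Gpx4 and -0.0126 to 0.31 for Gclm. The cause was not tested. The median change of all genes with age in D1 neurons moved from -0.06 to -0.38 with voom. Rescaling TPM without Gm42418, chosen after seeing the data, moved no level ratio beyond its spread. Of the ratios of mean levels compared under all alternatives, 70 were counted as the same and 2 as moved. Low counts limit Sod3 and Gss, at 0 counts in most old D1 libraries. Those libraries had 34844870 to 50379824 assigned fragments. Old D2 replicate 4, at 27484038 fragments, held 69 counts of Gss and 9 of Sod3. Sod3 was at 0 counts in the other old D2 libraries and in all young D2 libraries. Whether depth set these values of 0 was not tested.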
